A study of Mus musculus with 6 samples.

Results

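The genes described here encode the sperm proteins known for, or related to those known for, joining the sperm membrane to that of the egg: Izumo1, Izumo2, Izumo3, Izumo4, Spaca6, Tmem95, Llcfc1, Dcst1 and Dcst2. They were taken by name from a table of raw counts, which held all 9 among 22770 genes. The libraries are of mouse round spermatids, haploid germ cells that have yet to elongate, sorted by fluorescence from testes of 28-day-old mice, most of them at step 8. Of the 6 libraries, 3 carry the genotype label Eif5a SKO, whose abbreviation the labels do not expand and whose columns are headed cKO, and 3 are wild type. The promoter or cell type that drives the deletion, and whether animals were pooled, are stated nowhere in the labels, so p-values measure only the spread between these libraries. EIF5A is a translation factor that relieves stalled ribosomes.

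Fusion is the last step of fertilisation. IZUMO1 comes to the sperm surface when the acrosome, the vesicle over the sperm head, releases its content, and there it binds JUNO on the egg. SPACA6 and TMEM81 are held to form a complex with IZUMO1. TMEM95, LLCFC1 (also called SOF1) and the paired membrane proteins DCST1 and DCST2 are likewise needed, since sperm of male mice without any of these reach and bind eggs but do not fuse. IZUMO2, IZUMO3 and IZUMO4 are relatives of IZUMO1, and IZUMO3 is known for a role in forming the acrosome. All these genes are transcribed in spermatids, well before their products are used.

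Library totals lay between 52055193 and 60970931 counts. Levels are given in CPM, counts per 1000000 of the library total scaled by edgeR's TMM factor, as mean ± SD with n = 3. A log2 fold change is positive where SKO was higher and comes with its SE. Eif5a itself was at 333, 338 and 270 counts in SKO replicates 1, 2 and 3 and at 41149, 36162 and 41278 in wild type, so Eif5a was low in all 3 libraries labelled SKO. SKO replicate 3 stood apart on principal component 2, which held 13.5% of the variance. Among the 19776 genes tested, 21.2% were called higher in SKO and 20.9% lower, which is 42.0% in either direction, by edgeR with a threshold of 0.05 on the Benjamini-Hochberg adjusted p, and 55.6% had groups that did not overlap. The round spermatid markers Acrv1, Tnp1, Tnp2, Prm1, Prm2, Acr, Spaca1, Tssk6, Lyzl1, Tex21, Catsper3 and Spata16 summed to 7202 to 7751 CPM in SKO and 5119 to 5689 CPM in wild type, with 6 of the 12 called higher, 1 (Tex21) lower and 5, Tnp1 and Acr among them, not called. Of 10 Sertoli cell markers 5 were measured, all 5 were called higher, and their sum was 57.3 to 185 CPM in SKO libraries and 1.82 to 9.02 CPM in wild-type ones. Sox9, Wt1, Gata4, Amh and Rhox5 of that list were not analysed here. Of 5 Leydig cell markers 3 were called higher (sums 7.22 to 43.9 CPM in SKO, 1.23 to 20.1 CPM in wild type), and of 3 myoid and macrophage markers tested 1, Acta2, was called higher and 1, Adgre1, lower. Of 10 spermatocyte markers 2 were called higher (Sycp3 and Dmc1) and 3 lower (Aurkc, Meiob and Spo11). The 10 summed to 709 to 888 CPM in SKO and 874 to 888 CPM in wild type. Of 5 spermatogonium markers 2, Kit and Dmrt1, were called lower, at sums of 15.2 to 18.5 CPM and 21.4 to 25.3 CPM. The 2 blood markers summed to 11.1 to 30.5 CPM in SKO libraries and 4.06 to 16.2 CPM in wild-type ones. The part of these other cells in the results was not tested. In such bulk samples fewer cells of a type and less RNA per cell cannot be told apart.

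All 9 fusion genes were abundant enough to be tested, and they moved in different directions. Izumo2, Izumo4, Llcfc1 and Spaca6 were called higher in SKO (4 of 9, against 21.2% of all genes). Tmem95 and Dcst1 were called lower (2 of 9, against 20.9%). Izumo1, Izumo3 and Dcst2 were not called. The groups did not overlap for 6 of 9, a share not far from the 55.6% of all genes, and 0 of 9 changed as much as 2-fold. The share called higher was above that of all genes and the share called lower close to it, in a set of only 9. The median log2 fold change was 0.20 over the 9 and 0.01 over all genes tested. Without SKO replicate 3 the counts were again 4 higher and 2 lower, but Izumo1 took the place of Spaca6 among those called higher. The number called lower dropped to 1 without SKO replicate 2 and to 0 without any single wild-type library.

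**Figure D1:**
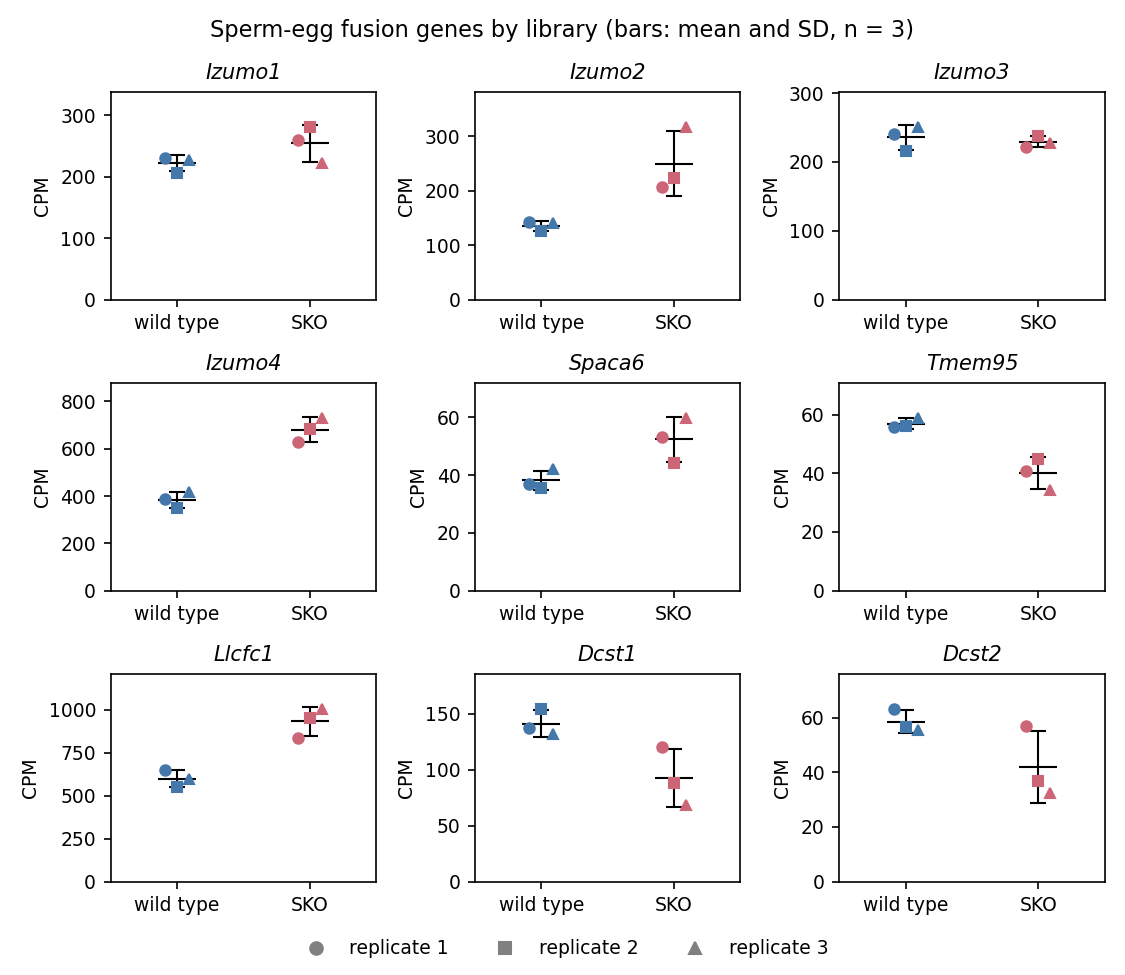
Level of each fusion gene in CPM (vertical axis from 0, scaled per gene) in the wild-type and SKO libraries. Points are libraries with the replicate number as the symbol, and bars are mean and SD (n = 3); Izumo2, Izumo4, Llcfc1 and Spaca6 lie wholly above wild type in SKO, Tmem95 and Dcst1 wholly below it.

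Sequence upstream of the gene is shown for Izumo1, whose protein binds JUNO on the egg, and for Llcfc1, the most abundant of the 9. The stretch between Dcst1 and Dcst2, which are read away from each other, is also shown. The sequences are RefSeq's for GRCm38.p6, where 8 of the 9 genes had a promoter window of 250 bases before to 50 after the start, and they are written 5′ to 3′ on the plus strand. Capitals mark TGACGTCA, the full cAMP response element, bound by factors of the CREM type that act in spermatids, and in Llcfc1 the TATA box TATAAA. Positions count back from the start that the window was drawn from, at 45621811 for Izumo1 and 41684431 for Llcfc1. The Llcfc1 stretch is cut short and ends at 41684386, the base before an earlier annotated start of that gene. Counted from the earlier start, TATAAA lies closer than the position given below.

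Izumo1, chr7:45621561-45621810: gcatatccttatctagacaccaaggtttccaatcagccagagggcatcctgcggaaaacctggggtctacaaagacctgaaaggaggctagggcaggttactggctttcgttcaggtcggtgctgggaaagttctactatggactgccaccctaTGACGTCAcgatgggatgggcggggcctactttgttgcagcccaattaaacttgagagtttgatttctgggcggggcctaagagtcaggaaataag
Llcfc1, chr6:41684181-41684386: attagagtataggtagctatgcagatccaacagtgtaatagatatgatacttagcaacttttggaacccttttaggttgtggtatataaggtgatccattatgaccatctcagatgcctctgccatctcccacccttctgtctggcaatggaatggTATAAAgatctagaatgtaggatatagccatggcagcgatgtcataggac
Dcst1 and Dcst2, chr3:89365254-89365318: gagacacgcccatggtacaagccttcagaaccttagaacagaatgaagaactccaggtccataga

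Each motif was searched for on both strands of these windows. TGACGTCA was found in 1 of the 8 windows, that of Izumo1, from position -96, and in 1.79% of all 32851 windows. Its core TGACG, which overlaps it, was found in 2 of the 8, Izumo1 and Tmem95 (from position -208), and in 20.8% of all windows. TATAAA was found in 1 of the 8, Llcfc1, from position -94, and in 13.6% of all. CCAAT was found in 2 of the 8 and 37.4% of all, and the GC box GGGCGG in 2 of the 8 and 35.7% of all. A match is a run of letters and not a site shown to be bound.

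Izumo1, found on chromosome 7 between 45621811 and 45628823 on the plus strand (GENCODE M21, GRCm38), stood at 259, 282 and 222 CPM in SKO replicates 1 to 3 and at 231, 207 and 228 CPM in wild type. The groups overlapped, because SKO replicate 3 fell between the wild-type values. Its means were 255 ± 30.04 and 222 ± 13 CPM, 0.20 ± 0.13 apart on the log2 scale (edgeR adjusted p = 0.259, 95% interval -0.099 to 0.49). Without SKO replicate 3 it was 0.25 ± 0.088 and passed the threshold (edgeR adjusted p = 0.0409), and its sign turned under library totals alone (-0.046). The annotated exons of Izumo1 share 654 bases with Rasip1 on the same strand, which itself reached only 0.33 CPM (wild type) and 0.686 CPM (SKO).

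Spaca6, whose protein stands beside IZUMO1 on the sperm, was higher in SKO. It stood at 53.1, 44.3 and 60.0 CPM in SKO replicates 1 to 3 and at 37.1, 35.4 and 42.0 CPM in wild type. The groups did not overlap, but the lowest SKO library lay only just above the highest wild-type library. Means were 52.5 ± 7.84 and 38.2 ± 3.44 CPM, giving 0.46 ± 0.16 on the log2 scale (edgeR adjusted p = 0.0407). The gene lies on the plus strand of chromosome 17 from 17827158 to 17843009 and hosts 3 annotated microRNA genes on its strand. Its call depended on the processing, since it passed the threshold in 7 of 15 alternatives, with a log2 fold change from 0.23 under library totals alone to 0.54. It was not called without SKO replicate 1 or 3 (0.43 and 0.32), without wild-type replicate 1, 2 or 3 (0.44, 0.41 and 0.53), or once transcript length and GC content were corrected for (0.33).

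Tmem95, a small membrane protein gene on chromosome 11 (69876684 to 69878018, minus strand), was lower in SKO. Its levels were 40.9, 45.0 and 34.3 CPM in SKO replicates 1 to 3 and 55.8, 56.1 and 59.0 CPM in wild type. Every SKO library lay below every wild-type library. Means were 40.0 ± 5.39 and 57.0 ± 1.75 CPM, giving -0.51 ± 0.15 on the log2 scale (edgeR adjusted p = 0.0195). Its call was lost without wild-type replicate 1, 2 or 3 (edgeR adjusted p = 0.0658, 0.054 and 0.0745), while the length and GC correction gave a larger change of -0.89 ± 0.17.

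Dcst1 and Dcst2 encode membrane proteins with a domain first known from DC-STAMP, a protein of fusing osteoclasts, and the sperm need both. Dcst1 was at 121, 88.4 and 69.0 CPM in SKO replicates 1 to 3 and at 137, 155 and 132 CPM in wild type, so all SKO libraries lay below wild type. Dcst2 was at 56.9, 36.85 and 32.3 CPM in SKO and at 63.3, 56.6 and 55.6 CPM in wild type, and its groups overlapped because of SKO replicate 1. For Dcst1 the means were 92.7 ± 26.2 and 141 ± 11.9 CPM, giving -0.61 ± 0.20 on the log2 scale (edgeR adjusted p = 0.0312). For Dcst2 they were 42.0 ± 13.1 and 58.5 ± 4.18 CPM, giving -0.48 ± 0.21 on the log2 scale that was not called (edgeR adjusted p = 0.0925, 95% interval -0.94 to -0.011). The SKO libraries spread more than for the other 7 genes, with a coefficient of variation of 28.2% for Dcst1 and 31.2% for Dcst2.

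The ratio of Dcst2 to Dcst1 counts was 0.471, 0.417 and 0.469 in SKO replicates 1 to 3 and 0.461, 0.366 and 0.421 in wild type. The groups overlapped, and the log2 ratio differed by 0.12 (exact permutation test, two-sided, p = 0.3, where 3 against 3 libraries cannot go below 0.1). Dcst1 is read on the minus strand of chromosome 3 from 89365253, and Dcst2 on the plus strand from 89365319 in the RefSeq windows, which leaves the 65 bases printed above between the starts. GENCODE begins Dcst2 at 89361975, inside the span of Dcst1, but their annotated exons share 0 bases. The exons of Dcst1 do share 1268 bases, 24.2% of their length, with Gm10702, a pseudogene on the opposite strand that was not among the genes counted. Whether the counting used strand is not known from the labels. Dcst1 was not called without SKO replicate 2 (-0.61), without wild-type replicate 1, 2 or 3 (-0.63, -0.54 and -0.66) or after the length and GC correction (-0.27). That correction also brought Dcst2 to -0.11, whereas Dcst2 was called without SKO replicate 1 (-0.78 ± 0.16, edgeR adjusted p = 0.00568) and under library totals alone (-0.72).

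**Figure D2:**
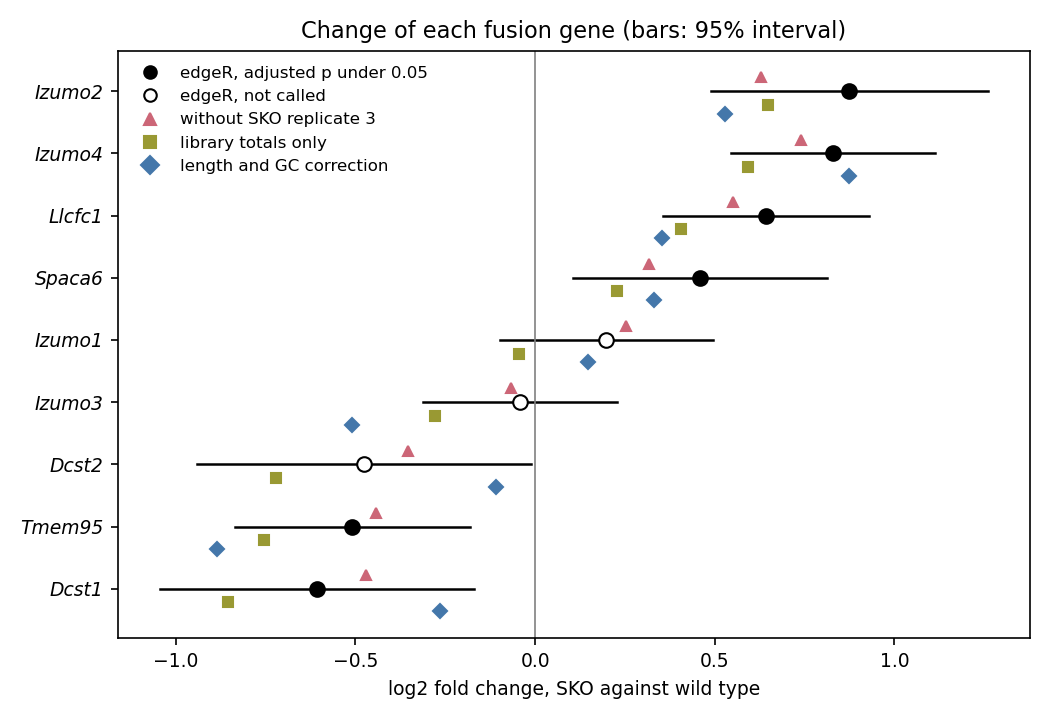
Log2 fold change of SKO against wild type for each fusion gene: circles are edgeR values with their 95% intervals, filled where the adjusted p was under 0.05, and smaller marks are 3 alternatives. Izumo2, Izumo4, Llcfc1 and Spaca6 stay right of 0 under all marks shown, and Tmem95, Dcst1 and Dcst2 stay left of it. The length and GC correction moves Izumo3 to -0.51 and Dcst2 to -0.11.

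Llcfc1 was higher in SKO and was the most abundant of the 9 in all 6 libraries, by CPM and per length. It encodes a small secreted-type sperm protein, and the gene spans 41684431 to 41685717 on the plus strand of chromosome 6. It stood at 839, 953 and 1007 CPM in SKO replicates 1 to 3 and at 648, 550.0 and 595 CPM in wild type, with every SKO library above wild type. Means were 933 ± 85.9 and 598 ± 49.2 CPM, giving 0.64 ± 0.13 on the log2 scale (edgeR adjusted p = 0.00323). It passed the threshold in 15 of 15 alternatives, with values from 0.35 after the length and GC correction to 0.70, and was 0.41 under library totals alone.

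Of the relatives of Izumo1, Izumo2 and Izumo4 were higher in SKO and Izumo3 was not called. Izumo4 lies on the plus strand of chromosome 10 from 80702184 to 80705373. It stood at 627, 682 and 732 CPM in SKO replicates 1 to 3 and at 386, 348 and 415 CPM in wild type, and the groups were far apart. The means of 680.1 ± 52.4 and 383 ± 33.9 CPM gave 0.83 ± 0.13 on the log2 scale (edgeR adjusted p = 0.000804), the lowest adjusted p among the 9. It was called in 15 of 15 alternatives, from 0.59 to 0.89.

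Izumo2, on the plus strand of chromosome 7 from 44708742 to 44719844, rose by about as much as Izumo4, within their SEs. Its levels were 206.5, 224 and 318 CPM in SKO replicates 1 to 3 and 142, 126 and 141 CPM in wild type. SKO replicate 3 was highest by a wide margin, and the other SKO libraries were also above all wild-type libraries. Means were 249.5 ± 59.8 and 136 ± 9.09 CPM, giving 0.87 ± 0.17 on the log2 scale (edgeR adjusted p = 0.00311). It was called in 15 of 15 alternatives, and stood at 0.63 without SKO replicate 3 and at 0.53 after the length and GC correction. The ratio of Izumo2 to Izumo1 counts was 0.614, 0.607 and 0.618 in the wild-type libraries and 0.796, 0.795 and 1.43 in SKO. The ratio was thus nearly constant in wild type, higher in every SKO library, and above 1 only in SKO replicate 3. The log2 ratio differed by 0.66 (exact permutation test, two-sided, p = 0.1, the smallest that 3 against 3 allows).

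Izumo3 sits on chromosome 4 between 92144329 and 92147234, minus strand. It stood at 222, 238 and 228 CPM in SKO replicates 1 to 3 and at 241, 216 and 251 CPM in wild type, with overlapping groups. The log2 difference was -0.04 ± 0.12 (edgeR adjusted p = 0.812, 95% interval -0.31 to 0.23). Its longest coding transcript has the lowest GC content of the 9, 41.0% against 48.6% to 58.7%. After the length and GC correction it was called lower, at -0.51 ± 0.096 (edgeR adjusted p = 0.00273).

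SKO replicate 3 was the highest SKO library for Izumo2, Izumo4, Llcfc1 and Spaca6 and the lowest for Izumo1, Tmem95, Dcst1 and Dcst2. The 9 genes summed to 2426, 2594 and 2702 CPM in SKO replicates 1 to 3 and to 1942, 1749 and 1918 CPM in wild type. Llcfc1 and Izumo4 made up most of that sum. Llcfc1 gave 36.2 ± 1.43% of the counts of the 9 in SKO and 31.9 ± 1.26% in wild type, and Izumo4 gave 26.4 ± 0.625% and 20.5 ± 1.02%. Izumo1 gave 9.93 ± 1.47% in SKO and 11.9 ± 0.0297% in wild type, and the share of Dcst1 was 3.65 ± 1.23% and 7.60 ± 1.09%. The shares of Tmem95 were 1.56 ± 0.256% and 3.05 ± 0.170%. The shares of the SKO libraries did not overlap those of wild type for any of the 9 genes except Spaca6. These shares are parts of 1 sum, so a rise of Llcfc1 and Izumo4 lowers the shares of the others. The shares of Izumo1 and Izumo3 were lower in SKO although their CPM overlapped between groups. The 55.6% of all genes whose groups did not overlap is for CPM and cannot be set beside these shares.

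Between genes, levels can be compared only per length. In CPM per kilobase of the transcript with the longest coding sequence, wild type ran from Llcfc1 (807 ± 66.4) through Izumo4 (320.2 ± 28.4), Izumo2 (215 ± 14.4), Izumo3 (189 ± 14.6), Izumo1 (149 ± 8.71), Tmem95 (107 ± 3.29), Dcst1 (60.3 ± 5.09) and Spaca6 (35.6 ± 3.21) to Dcst2 (25.6 ± 1.83). In wild type the neighbours in this order whose libraries overlapped were Izumo2 and Izumo3. In SKO the order was the same for the first 6, led by Llcfc1 at 1259 ± 116, and Spaca6 (48.9 ± 7.30) came before Dcst1 (39.6 ± 11.2). There the overlapping neighbours were Izumo3 with Izumo1 and Spaca6 with Dcst1. Taking the length of all annotated exons instead moved Spaca6, whose exons span 7067 bases against 1073 for that transcript, to the end of the order in both groups. It also put Izumo4 behind Izumo2 in both groups and behind Izumo3 in wild type. Tmem95 then came before Izumo1 in wild type, and Dcst2 before Dcst1 in SKO. Llcfc1 stayed first in both groups.

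**Figure D3:**
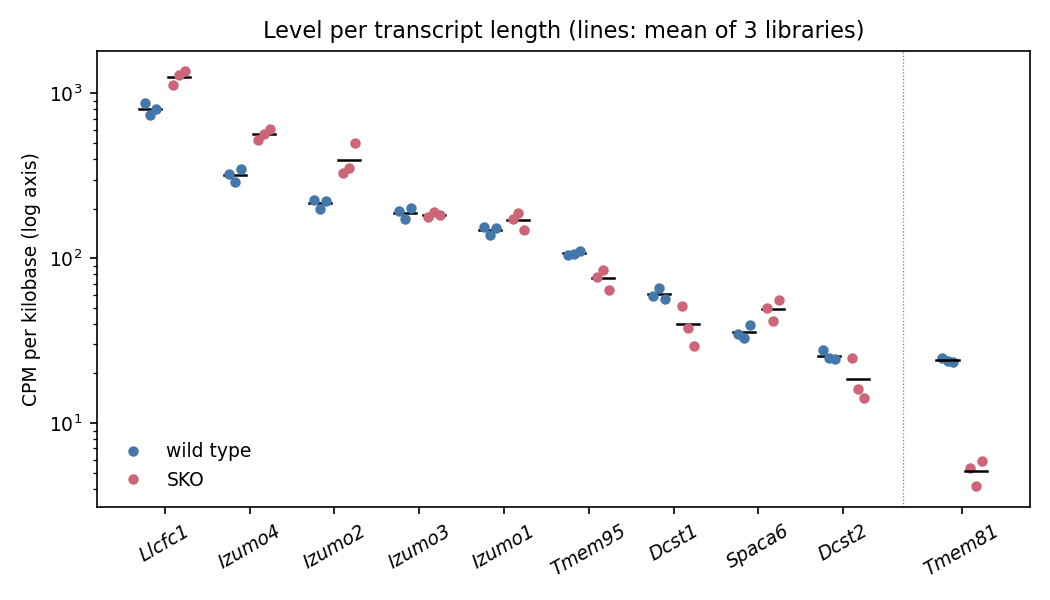
Level per transcript length in CPM per kilobase (log axis) for the fusion genes, ordered by wild type, and for Tmem81. Points are libraries and lines their mean (n = 3); Llcfc1 is highest in both groups, and Tmem81 falls from 24.0 to 5.12.

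Tmem81 is not among the 9 and lies on another chromosome than any of them, chromosome 1, but it encodes the third sperm protein of the complex with IZUMO1 and SPACA6. Its counts were 450, 392 and 521 in SKO replicates 1 to 3 and 2542, 2447 and 2557 in wild type. The groups were far apart, with 8.96 ± 1.55 CPM in SKO against 42.0 ± 1.18 CPM, giving -2.23 ± 0.17 on the log2 scale (edgeR adjusted p = 2.83e-05). It was called lower in 15 of 15 alternatives, from -2.46 to -2.13. Per length it stood at 24.0 ± 0.676 CPM per kilobase in wild type and 5.12 ± 0.884 in SKO. The ratio of Tmem81 to Spaca6 counts was 1.17, 1.18 and 0.9748 in wild type and 0.175, 0.164 and 0.172 in SKO replicates 1 to 3 (a ratio chosen after the values were seen, and so not tested). The ratio of Tmem81 to Izumo1 counts was 0.187, 0.201 and 0.180 in wild type and 0.0359, 0.0258 and 0.0464 in SKO.

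Of 10 other sperm genes of egg adhesion and fusion, 6 were called higher and 1, Tmem81, lower, against 21.2% and 20.9% of all genes, with a median log2 fold change of 0.57 against 0.01. Under library totals alone 3 were called higher, since 1700029I15Rik (0.52), Spaca4 (0.39) and Eqtn (0.26) lost their calls, and the groups of Eqtn overlapped. Without wild-type replicate 2 again only 3 were called higher. After the length and GC correction 4 were called higher and 2 lower, with Eqtn at 0.0026. Eqtn was called in 7 of 15 alternatives. Spaca1 and Spaca3, whose products lie in the acrosome, rose in log2 terms by 0.93 ± 0.12 and 1.01 ± 0.15 (edgeR adjusted p = 0.000413 and 0.000594). The gene 1700029I15Rik, now called Frey1, encodes a spermatid protein of the endoplasmic reticulum that IZUMO1 needs to be made. It stood at 4418, 5624 and 7746 counts in SKO replicates 1 to 3 and 4249, 3774 and 4439 in wild type, or 116 ± 32.7 and 69.3 ± 4.34 CPM. The log2 difference of 0.75 ± 0.19 (edgeR adjusted p = 0.0116) was no longer called under library totals alone (0.52), without wild-type replicate 2 (0.69), or after the length and GC correction (0.24). The gene 4930451I11Rik, which encodes the fusion protein FIMP, was at 68.4 ± 13.4 CPM in SKO and 69.7 ± 8.85 CPM in wild type, with overlapping groups (log2 fold change -0.03 ± 0.17, edgeR adjusted p = 0.915). After the length and GC correction it was called lower, at -0.47.

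Of 29 genes that carry sperm to the egg coat and bind it, 6 were called higher and 5 lower, shares close to the 21.2% and 20.9% of all genes, with a median of 0.15 against 0.01. Ly6k and Pmis2, both needed for sperm to pass into the oviduct, rose by 1.29 ± 0.17 and 0.83 ± 0.12 on the log2 scale, and the metalloprotease-family genes Adam4 and Adam1a fell by 1.10 ± 0.20 and 1.29 ± 0.24. Adam1a has a close copy, Adam1b, with which it can share reads. Leaving out SKO replicate 3 raised the calls over these lists and the egg-side genes from 20 to 26, and leaving out wild-type replicate 2 lowered them to 13. On the egg side Cd9 and Cd81, tetraspanin genes that the egg needs for fusion and many other cells express, rose from 0.642 ± 0.227 to 1.64 ± 0.396 CPM and from 3.34 ± 0.433 to 10.6 ± 2.35 CPM, both low levels. Cd9 was not called without SKO replicate 3 (1.11) or without wild-type replicate 2 or 3 (1.196 and 1.23). Izumo1r, the gene of JUNO, was not analysed here. Ocstamp, a relative of the Dcst genes, reached 0.645 CPM (wild type) and 0.601 CPM (SKO) only (edgeR adjusted p = 0.897).

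**Figure D4:**
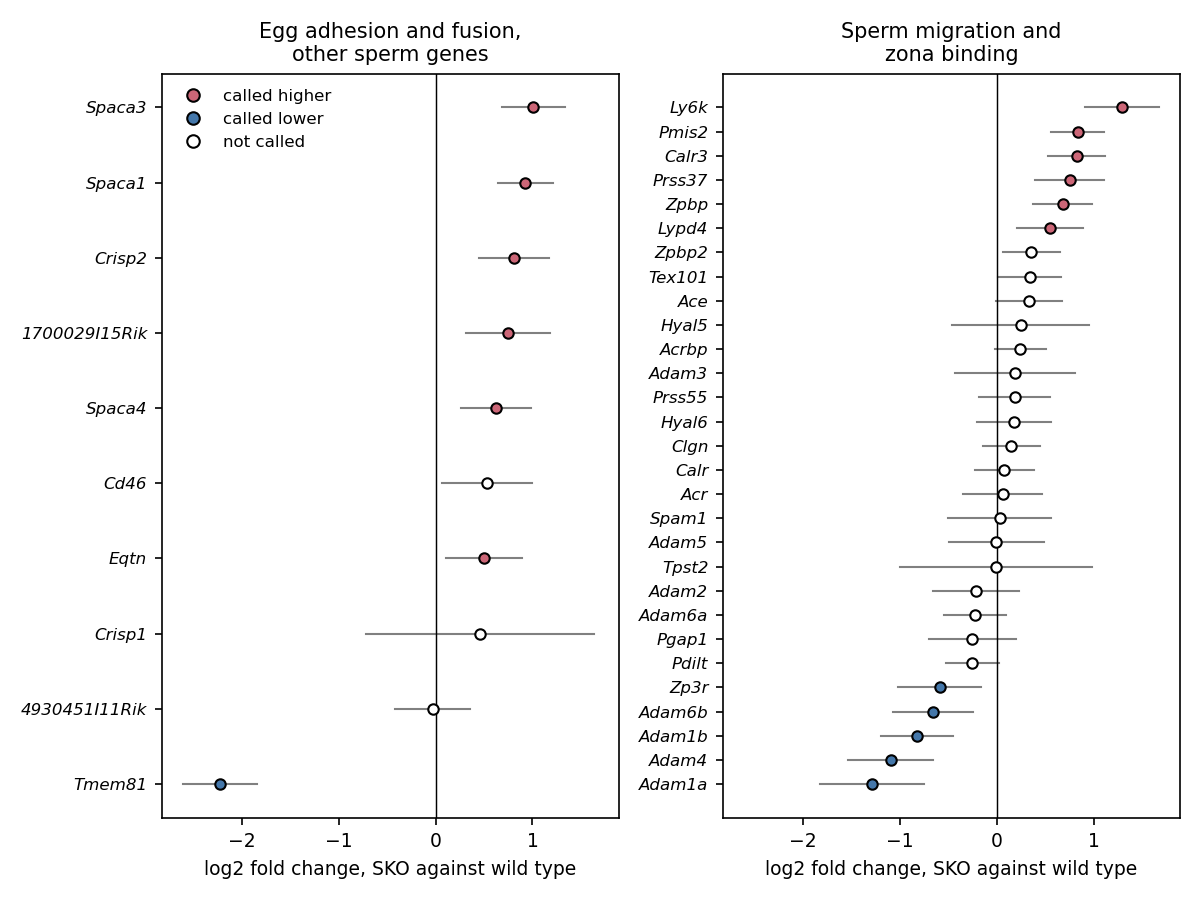
Log2 fold change of SKO against wild type with 95% intervals for other sperm genes of egg adhesion and fusion (left) and of migration and zona binding (right). Filled circles passed an edgeR adjusted p under 0.05, red for higher and blue for lower; Tmem81 at -2.23 lies far left of all others plotted.

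Of 20 neighbours tested (the nearest measured gene on each side of each member, and those between Tmem95 and Eif5a), 2 were called higher and 6 lower, and the 8 in all are a share close to the 42.0% of all genes. Changes are on the log2 scale. Beside Izumo4, which rose, Mob3a lies 206 bases away and fell by 0.92 ± 0.24 (edgeR adjusted p = 0.0127), while Ap3d1 on its other side was not called (-0.01 ± 0.25). Beside Izumo2, Zfp473 fell by 1.83 ± 0.36 and 2310016G11Rik was not called (-0.50 ± 1.08). Flad1, beyond Dcst2, fell by 0.66 ± 0.17, whereas Adam15, 222 bases from Dcst1, was not called (-0.28 ± 0.37). Lnpep and Gm7535, the nearest measured genes to Spaca6 at 202 and 68.0 kb, fell by 0.88 ± 0.26 and 1.57 ± 0.47. Fut1 and Rasip1 beside Izumo1, Trpv6 and Kel beside Llcfc1, and 4930577H14Rik and Gm12666 beside Izumo3 were not called.

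Tmem95 has a particular neighbour, because 38.7 kb separate it from Eif5a, the deleted gene, on the same strand. In between lie Kctd11, Acap1, 2810408A11Rik, Neurl4 and Gps2. Gps2, a subunit of a nuclear corepressor complex and the gene next to Eif5a, stood at 5097, 5507 and 3781 counts in SKO replicates 1 to 3 and 13096, 11447 and 14251 in wild type, and fell by 1.196 ± 0.16 (edgeR adjusted p = 0.000388). By contrast 2810408A11Rik rose by 0.59 ± 0.12 (edgeR adjusted p = 0.00331), and Kctd11, Acap1 and Neurl4 were not called. On the far side of Tmem95, Tmem256 rose by 2.26 ± 0.36, from 0.579 to 2.78 CPM. Whether the altered allele itself bears on Tmem95 was not tested.

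**Figure D5:**
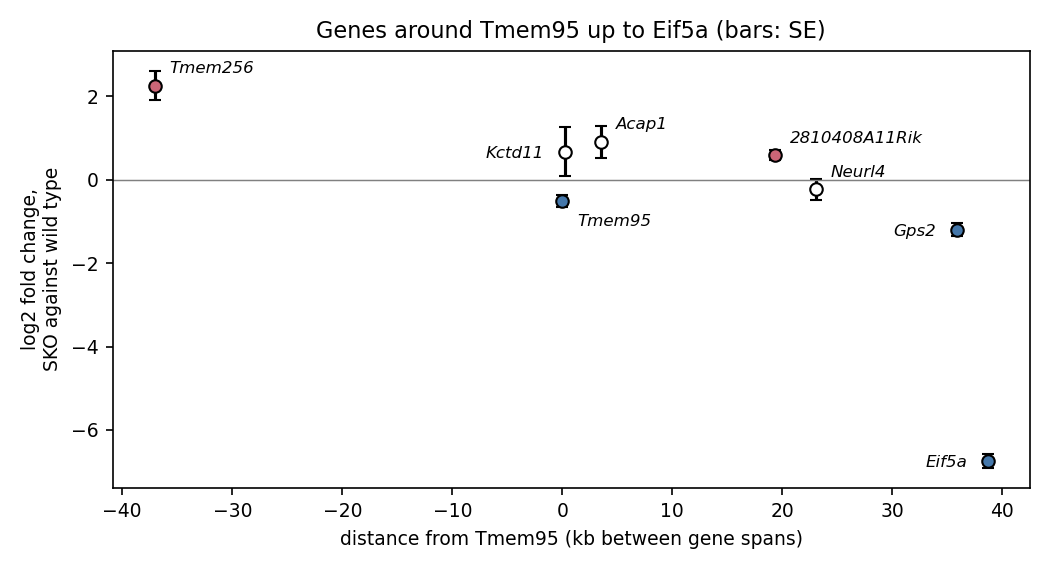
Log2 fold change of SKO against wild type (bars: SE) of the genes around Tmem95, by the distance between gene spans in kilobases. Blue and red mark genes called lower and higher; Eif5a at -6.74 and Gps2 at -1.196 lie at the right, and 2810408A11Rik at 0.59 lies between them and Tmem95.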

How the data were processed

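Polyadenylated RNA of sorted round spermatids was amplified by Smart-seq2, without molecular identifiers, in 3 SKO and 3 wild-type libraries. The authors deposited raw counts per gene, made by featureCounts 1.5.0-p3 from HISAT2 2.0.5 alignments to GRCm38 (mm10) after trimming with Trim Galore 0.6.4, per the submitters' processing notes. Which annotation release was used, and how strand and multi-mapping were handled, is not given in the sources used here. Reads of overlapping genes or close copies may therefore be misassigned.

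Genotype and replicate number linked columns to labels. All 6 libraries were kept, since same-group pairs differed by more than sampling noise (chi-square per degree of freedom 14.2 to 141). Genes passing filterByExpr (minimum counts 10 and 15) were tested by edgeR 4.0.16 (R 4.3.3), using the two-sided quasi-likelihood test after TMM scaling, with Benjamini-Hochberg adjustment over 19776 genes and the group as the only term. SE is the absolute log2 fold change over the square root of F. The test was tried on simulated data, in which far fewer genes were changed than were called here. It recovered 51% of genes changed 2-fold and 98% of those changed 4-fold, and 5.1% of its calls were unchanged genes. Ratios of counts had 0.5 added to each count.

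Of 22770 rows 22023 matched 1 gene name of GENCODE M21, which gave positions, lengths and GC content. The members and gene lists were chosen with earlier results of these data known. All 9 members are named. From other lists up to 2 genes in each direction with the lowest adjusted p, a few fixed genes and all neighbours could be named. Alternatives were DESeq2 1.42.0, limma-voom (limma 3.58.1), other scalings and filters, each library left out, the replicate number as a block, and a loess offset fitted per library to transcript length and GC content.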

Additional observations from a re-analysis of the deposited data

How the results depend on the processing

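Izumo2, Izumo4 and Llcfc1 kept their direction and their call in 15 of 15 alternatives. Under scaling by totals without TMM the median over all genes went from 0.01 to -0.23 and the calls from 4185 higher and 4127 lower to 2831 and 5666, which lowered Spaca6 to 0.23 (not called) and brought Dcst2 to -0.72 (called). The length and GC correction brought Izumo3 to -0.51 (called), Spaca6 to 0.33 and Dcst1 to -0.27 (both not called). Requiring 5 CPM in 3 libraries left 3 called neighbours of the 8, with fewer genes tested. With each library left out in turn, the log2 fold change of Izumo1 ran from 0.090 to 0.25, that of Spaca6 from 0.32 to 0.54, that of Tmem95 from -0.63 to -0.44, that of Dcst1 from -0.87 to -0.47 and that of Dcst2 from -0.78 to -0.35. The members called lower ran from 0 (without any wild-type library) to 3, the other fertilisation genes called from 13 to 26, and the neighbours called from 5 to 9. Adam5 ran from -0.19 to 0.21, and was called, higher, without SKO replicate 3. The cause was not tested. Same-numbered libraries did not deviate together (correlations -0.022, -0.051 and -0.065). These values show no pairing by number but cannot exclude one, and the labels do not say what the numbers stand for. With the replicate number as a block Spaca6 (0.45) and Tmem95 (-0.52) were not called, and 1 member was called lower. Over all 78 results, 1053 of 1138 alternative values were rated the same as the main one. A change of sign where neither value was called was rated the same, and so was a small change in a count of genes. Ratios were rated by their sign alone. Counting error is small at these depths, so the spread between 3 libraries limits the precision.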

Other observations

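Genes whose products pass membrane and secreted proteins into the endoplasmic reticulum, where the fusion proteins are made, were also measured. The list also holds genes for folding and glycosylation there, such as Canx, Calr3, Ost4 and Stt3b. Of its 32 genes 13 were called higher and 2 lower, against 21.2% and 20.9% of all genes. The median log2 fold change was 0.28 against 0.01 (edgeR). Sec11a, a signal peptidase subunit, rose by 0.96 ± 0.13 on the log2 scale and Ssr4, of the translocon-associated complex, by 1.86 ± 0.25, from 1.59 to 5.77 CPM. Sec61a1, the channel itself, fell by 1.02 ± 0.24 and Srpr, the receptor for the signal recognition particle, by 0.65 ± 0.17.

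The genes whose log2 CPM, centred over the 6 libraries, lay closest to that of Izumo1 among 9919 candidates with a mean of at least 5 CPM were C8b, Pde6d, Nras, Nup37 and Crcp, at Euclidean distances of 0.0247 to 0.0872. They were chosen by that likeness, so their fold changes add nothing to it.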
